A study of Mus musculus with 8 samples.

Results

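The mammalian circadian clock is a transcriptional loop. Its activators BMAL1 (gene Arntl) and CLOCK, or in some tissues NPAS2 in place of CLOCK, bind E-box sequences as a pair and switch on the Per and Cry genes, whose proteins return to the nucleus and inhibit that pair. A second loop runs through the nuclear receptors REV-ERB alpha (Nr1d1) and REV-ERB beta (Nr1d2), which are switched on by the same pair and repress Arntl and Npas2 through ROR elements. In liver this clock times much of metabolism, and the levels of most of its transcripts swing over the day, with Arntl and the Per genes peaking at opposite phases. The labels do not give the time of day at which these livers were taken.

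The 10 core genes of the loop were followed here, 3 activators (Arntl, Clock and Npas2) and 7 repressors (Per1, Per2, Per3, Cry1, Cry2, Nr1d1 and Nr1d2). They were found by gene name, current or older, among the array's 41174 probes for 27666 named genes. The 10 genes had 18 probes, and all 18 passed the filter on dim probes. Where a gene had several probes, its brightest probe stood for it, and the others are given beside it.

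Whole-liver RNA from C57BL/6 mice had been hybridised to 8 single-colour Agilent arrays, 2 in each of 4 groups. All mice were 6-month-old females and carried the floxed allele Dicer1loxP/loxP. The knockouts (KO) also carried Albumin-Cre, a recombinase under the albumin promoter that removes Dicer1, the enzyme that cuts microRNA precursors, from hepatocytes, and the controls (WT) were floxed littermates without it. Mice of each genotype had been given 1 intraperitoneal injection of either 120 mg/kg ENU (N-ethyl-N-nitrosourea, a DNA-alkylating mutagen) or its vehicle DMSO, in 2 ml/kg, and the design text places the measurement 15 days after ENU. The KO is aimed at hepatocytes, and whole-liver arrays do not show in which cells Dicer1 was lost.

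The arrays named a and b of each group differed by close to the noise between repeated spots, slightly more in all groups but WT after ENU. Their median standardised difference was 0.679 to 0.822, where spot noise alone gives 0.688, against 12.4 to 26.9 between arrays of different groups. Each pair was therefore counted as 1 RNA sample, which leaves 4 RNA samples, 1 per group. Tests over them have no replicates, and take as error how far a gene's ENU difference differs between the genotypes. A gene whose ENU differences are unlike in KO and WT thus gets a large SE. The number of mice behind each sample is not given. Slide and treatment cannot be told apart, because both ENU groups lay on 1 slide and both vehicle groups on the other. Genotype and array position cannot be told apart either, with KO at positions 1 and 2 and WT at 3 and 4 of each slide. The 75th percentile of signal was 436 to 681 across arrays, between 54.7% and 69.3% of spots were well above background, and 0 spots were saturated. Dicer1 itself was lower in KO at both of its probes. The brighter differed by -0.50 on vehicle and -0.25 after ENU (log2), and the dimmer by -2.46 and -1.51. The labels do not say which part of the gene is removed.

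Cell-type markers differed between the genotypes beside every result below. Levels are given as log2 of the signal over the array's 75th percentile, and a marker list's summed level as its summed multiples of that percentile. In the limma test of KO against WT, 6 of 9 measured hepatocyte markers fell and 0 rose. Their summed level was 1966 to 1975 in WT on vehicle and 1648 to 1717 after ENU, against 949 to 1003 and 971 to 995 in KO. All 7 measured cholangiocyte markers rose, with summed levels of 5.80 to 7.98 in WT and 62.7 to 65.1 in KO. Of 8 markers in each list, 8 neutrophil and myeloid progenitor, 5 macrophage, 3 stellate and 4 lymphocyte markers rose, while 1 lymphocyte and 1 endothelial marker fell. Beside all these marker counts, 16.9% of all genes rose and 15.3% fell in the same test. ENU livers also differed in these markers, in a test that called 0 of all genes. All 8 macrophage markers were higher after ENU on average (median log2 difference 0.87), with summed levels of 49.6 to 50.2 on vehicle and 74.8 to 75.8 after ENU in WT, and 138 to 139 and 244 to 246 in KO. Summed stellate markers were 14.0 to 14.2 and 23.1 in WT and 60.1 to 61.0 and 66.3 to 66.6 in KO, and lymphocyte markers 1.37 and 2.10 to 2.34 in WT and 2.49 to 2.52 and 4.24 to 4.33 in KO. The part of cell composition in the clock gene differences was not tested, and in whole liver fewer cells of a type and less RNA per cell cannot be told apart.

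Elements through which the clock acts are spelled out in some of these promoters, and 4 of the 6 windows with a match are shown, chosen so that each kind of element is seen. Each is 300 bases long, 250 before and 50 after an annotated start site, from RefSeq on GRCm38.p6, written 5′ to 3′ on the gene's strand with matches in capitals. The searched letters were CACGTG (E-box), CACGTT (an E-box variant, read AACGTG from the other strand), TTANGTAA (D-box, bound by DBP and its relatives and by NFIL3) and TAGGTCA (the core of a ROR element), on both strands, none of which overlapped another in these windows.
Arntl, chr7:113207261-113207560, plus strand: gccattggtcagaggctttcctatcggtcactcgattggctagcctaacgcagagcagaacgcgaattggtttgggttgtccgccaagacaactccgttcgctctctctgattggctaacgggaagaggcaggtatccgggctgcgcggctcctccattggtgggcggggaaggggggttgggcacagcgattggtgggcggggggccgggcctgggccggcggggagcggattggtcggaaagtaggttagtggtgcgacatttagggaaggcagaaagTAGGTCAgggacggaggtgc
Per1, chr11:69098699-69098998, plus strand: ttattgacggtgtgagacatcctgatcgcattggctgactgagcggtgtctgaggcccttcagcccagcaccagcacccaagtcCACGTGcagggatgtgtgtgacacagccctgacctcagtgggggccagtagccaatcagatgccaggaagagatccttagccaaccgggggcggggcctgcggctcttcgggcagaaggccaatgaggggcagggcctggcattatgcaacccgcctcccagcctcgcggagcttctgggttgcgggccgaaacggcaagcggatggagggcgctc
Per3, chr4:151044616-151044915, minus strand: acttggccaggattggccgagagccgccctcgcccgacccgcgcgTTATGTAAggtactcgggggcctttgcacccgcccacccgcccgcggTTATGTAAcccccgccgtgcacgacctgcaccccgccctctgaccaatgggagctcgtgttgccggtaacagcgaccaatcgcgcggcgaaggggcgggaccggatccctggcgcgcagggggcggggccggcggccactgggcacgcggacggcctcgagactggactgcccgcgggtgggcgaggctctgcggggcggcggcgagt
Cry1, chr10:85185005-85185304, minus strand: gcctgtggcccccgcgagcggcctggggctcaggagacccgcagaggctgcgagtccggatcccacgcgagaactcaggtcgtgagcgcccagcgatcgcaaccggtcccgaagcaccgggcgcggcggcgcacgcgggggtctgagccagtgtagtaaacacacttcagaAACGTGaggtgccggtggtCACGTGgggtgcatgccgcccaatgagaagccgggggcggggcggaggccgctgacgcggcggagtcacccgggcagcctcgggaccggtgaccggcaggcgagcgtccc

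Of the 10 genes, 9 had a window in the table, and Per2 did not. The E-box letters stood in 2 of the 9, Per1 and Cry1, their first bases at -166 and -60 from the start site. They occur in 8.09% of the 27025 genes with windows. The variant was in 3 of the 9 (Cry1, Cry2 and Nr1d1) against 5.44% of all genes. Per3 held the D-box letters at 2 places, first bases at -205 and -158, against 2.72% of all genes with any. The ROR element core was found in 1 Arntl window, starting 31 bases after the start site, against 2.97% of all genes. A match describes letters in a window and is not evidence of binding.

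ENU and vehicle livers of WT mice differed by more than 2-fold in 8 of the 10 genes. Arntl and Nr1d1 were higher after ENU, and Per1, Per2, Per3, Cry1, Cry2 and Nr1d2 were lower. Past 2-fold were 12.7% of all 18134 genes (7.14% higher and 5.58% lower), counted at their measured values. Clock differed by -0.54. Npas2 differed by 1.47 but was not well above background on vehicle, so no fold is counted for it. The activators thus did not share 1 direction in WT, while all 5 Per and Cry genes were lower. The median of those 5 was -2.42, against -0.05 for all genes. It is the bound of Per3 itself, which was dim after ENU. With normexp, another background correction, 1 activator and 5 repressors were past 2-fold, against 5% of all genes.

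In KO, 3 of the 10 passed 2-fold, against 9.8% of all genes (4.32% higher and 5.48% lower). They were Nr1d1, which was higher, and Per2 and Cry1, which were lower. The Per and Cry genes had a median of -0.62 there, against -0.06 for all genes, and Arntl differed by 0.75 and Clock by -0.44. Each of these is a difference between 1 RNA sample and another and has no test.

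**Figure D1:**
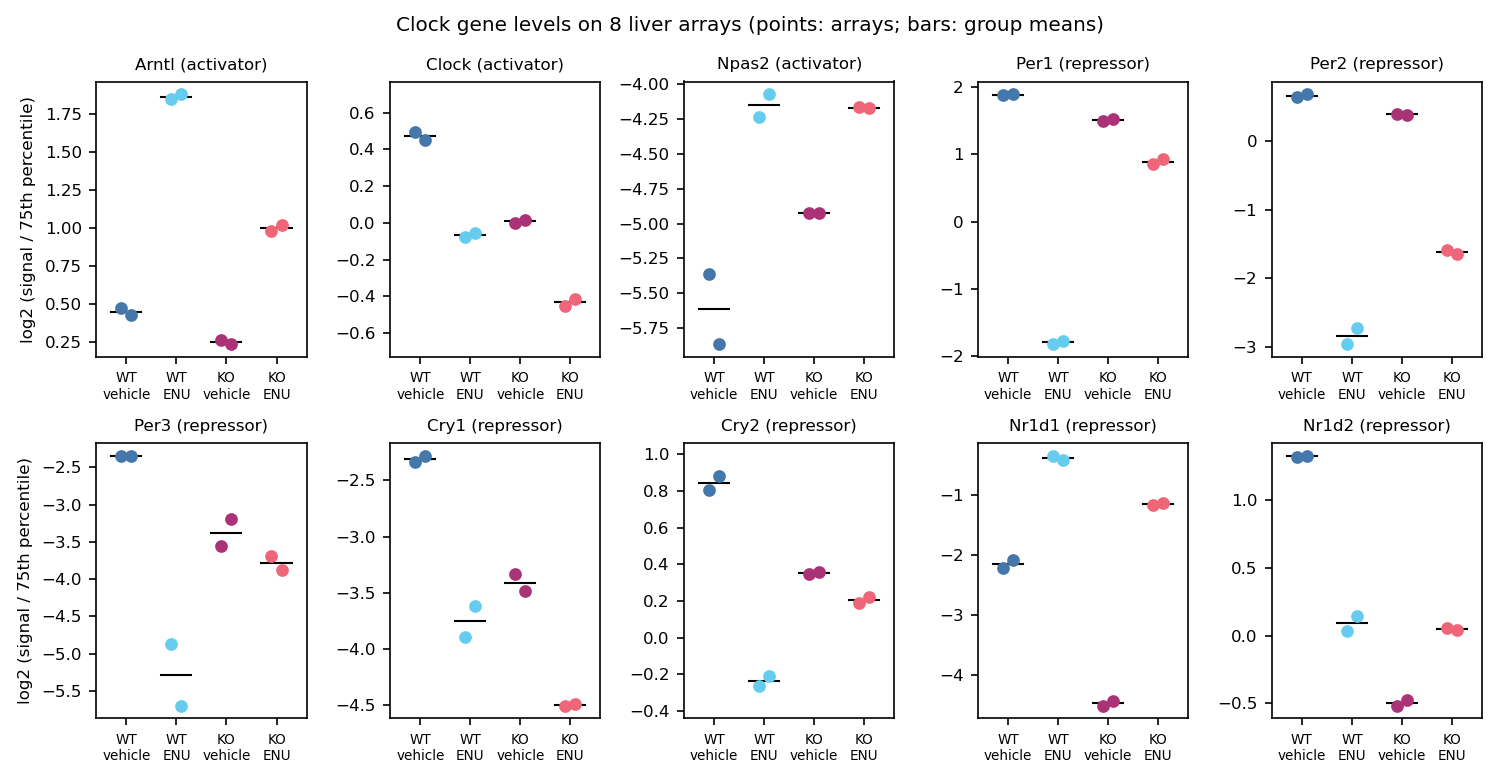
Levels of the 10 clock genes, 1 panel per gene, with the log2 signal over the array's 75th percentile on the y axis (scales differ between panels) and the 4 groups on the x axis. Points are arrays and bars are group means; the arrays of a group lie close together, and Per1, Per2, Per3 and Cry2 share 1 order of groups, highest in WT on vehicle and lowest in WT after ENU.

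Averaged over both genotypes, the limma test of ENU against vehicle called 0 of the 10 genes and 0 of all 18134 (0%) at an adjusted p of 0.05. With 4 RNA samples the fit has 1 residual degree of freedom. At an unadjusted p under 0.05 it listed 4009 genes (22.1%), among them Arntl and Nr1d1, higher, and Per2 and Cry1, lower. It also listed Npas2, whose probe entered the fit only through KO after ENU, and whose difference of 1.11 was 0.068 with normexp. Their adjusted p-values in limma were 0.158 to 0.167.

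The size of the ENU difference also differed between the genotypes. It was smaller in KO than in WT for 9 of the 10 genes, all but Nr1d1, against 53.5% of all genes. It was smaller for 8 of the 10 with normexp, where Npas2 was also larger in KO, and for 8 with probes averaged, where Clock was. At the second Cry1 probe, not well above background in KO after ENU, it read -2.08 in KO against -1.91 in WT. The median absolute log2 difference of the 10 was 1.45 in WT and 0.68 in KO, where all genes had 0.37 and 0.34. The direction was the same in both genotypes for 9 of the 10, all but Nr1d2, against 71.3% of all genes. That count, the count of genes smaller in KO and the medians of the 10 all include Npas2, which was not well above background on vehicle. The WT median lies between Cry1 and Npas2, and with normexp the WT difference of Npas2 was 0.02. With probes averaged Cry2 also turned, from -0.64 in WT to 0.14 in KO. The dimmer Cry2 probe turned as well (-0.20 and 0.42), as did the Nr1d1 probe farthest from the 3′ end (0.08 and -0.22). The comparison between genotypes rests on 1 RNA sample per group and was not tested.

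**Figure D2:**
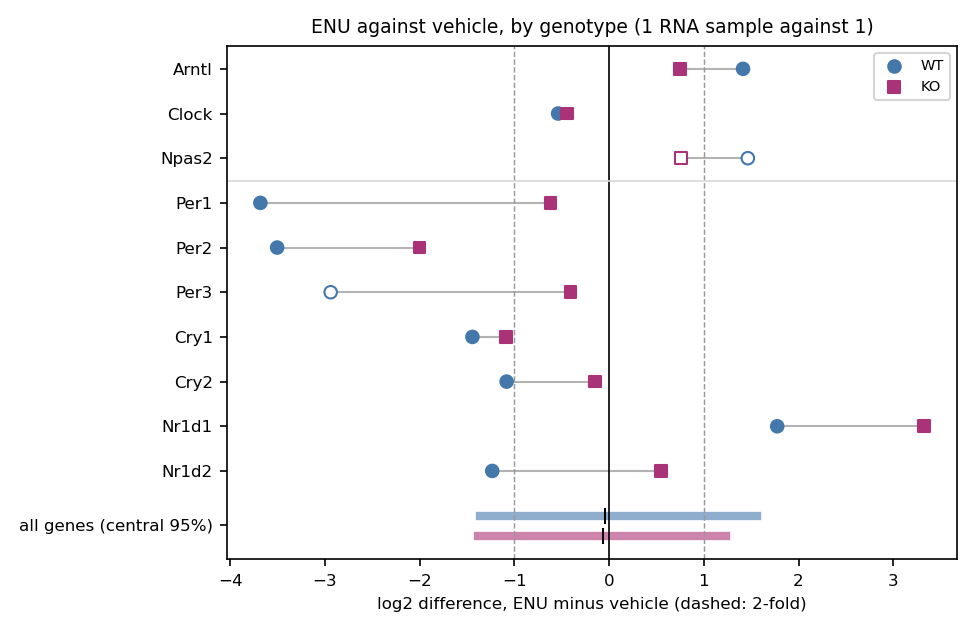
ENU minus vehicle in WT (circles) and KO (squares) for each gene, in log2 on the x axis, with the central 95% of all genes as bars at the bottom and dashed lines at 2-fold. Arntl and Npas2 lie to the right and the Per and Cry genes to the left, farther from 0 in WT than in KO. Open symbols are differences from a group not well above background, which have only a bound.

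Among the activators, Arntl, which encodes the obligate partner BMAL1, was read by 1 probe (A_52_P267651, chr7:109229489-109229548, plus strand, mm7). Its log2 level was 0.48 and 0.43 on the WT vehicle arrays and 1.85 and 1.88 after ENU. In KO it was 0.27 and 0.24 on vehicle and 0.98 and 1.02 after ENU. No 2 groups overlapped, and both ENU groups stood above both vehicle groups. The ENU sample was 2.67-fold higher in WT and 1.68-fold higher in KO. Averaged over genotypes the difference was 1.08 (SE 0.246, limma adjusted p = 0.167), and 5.67% of all genes lay as far from 0 in WT. KO and WT on vehicle differed by -0.20, and after ENU by -0.86 (1.82-fold lower in KO).

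Npas2, the alternative partner of BMAL1, was read by a far dimmer probe (A_52_P534749, chr1:39603477-39603536, plus strand, mm7). Its levels were -5.36 and -5.87 in WT on vehicle, -4.23 and -4.07 in WT after ENU, -4.93 and -4.92 in KO on vehicle, and -4.17 and -4.17 in KO after ENU. It was well above background on 3 of 8 arrays, 1 of WT after ENU and both of KO after ENU. The KO sample after ENU was therefore at least 1.68-fold higher than on vehicle, taking the dim group at the lowest signal measured well above background. No such bound above 1 could be given in WT. With normexp background correction the WT difference of 1.47 became 0.02.

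Clock, which encodes the usual partner of BMAL1, varied least of the 10 with the processing reported here. Its brightest of 4 probes (A_52_P334670, chr5:76144675-76144734, minus strand, mm7) read 0.47 ± 0.031 in WT on vehicle and -0.066 ± 0.015 after ENU (SD of 2 arrays). In KO it read 0.0080 ± 0.011 and -0.43 ± 0.029. The highest and lowest groups were 1.87-fold apart, with KO below WT under both treatments. All 4 probes were lower in KO, by -0.42 to -0.55 averaged over treatments, and 0 of the 4 passed limma's test over 27201 probes (adjusted p 0.0939 to 0.162). With normexp the outer groups were 1.70-fold apart, against 1.23-fold for Npas2. With probes averaged they were 1.75-fold apart, against 1.56-fold for Cry2.

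The Per genes encode the inhibitors that scaffold the PER and CRY complex. At the probes standing for each gene, they showed the widest ENU differences among the loop's repressors in WT. With normexp, however, Nr1d1 (1.27) lay farther from 0 than Per3 (-1.16), and the second Per2 probe gave -0.80. Per1 (A_52_P79889, chr11:69190950-69191009, plus strand, mm7) read 1.88 and 1.90 in WT on vehicle and -1.82 and -1.77 after ENU. In KO it read 1.497 and 1.53 on vehicle and 0.86 and 0.93 after ENU. WT after ENU stood apart, and the other 3 groups were bright. ENU livers were 12.8-fold lower in WT and 1.54-fold lower in KO, and 0.187% of all genes lay as far from 0 in WT. KO was 1.30-fold lower than WT on vehicle and 6.45-fold higher after ENU. The averaged ENU difference was -2.15 (SE 0.795, limma adjusted p = 0.234).

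Per2 (A_51_P282760, chr1:91323914-91323973, minus strand, mm7) read 0.64 and 0.68 in WT on vehicle, -2.96 and -2.73 in WT after ENU, 0.39 and 0.38 in KO on vehicle, and -1.59 and -1.64 in KO after ENU. The vehicle groups were bright and both ENU groups low, lowest in WT. The ENU sample was 11.4-fold lower in WT and 4.003-fold lower in KO, averaging -2.75 (SE 0.421, limma adjusted p = 0.158). After ENU the KO was 2.35-fold higher than WT, a log2 difference of 1.23 that was 0.74 with normexp. A second probe, 23492 bases toward the 5′ end, gave ENU differences of -0.80 in WT and -0.64 in KO. At that probe KO was lower than WT after ENU as well, by -0.84, and the averaged KO difference of -0.92 passed limma's test over all probes (adjusted p = 0.0331), whereas the brighter probe gave 0.48 (adjusted p = 0.41).

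Per3 (A_51_P258493, chr4:149994689-149994748, minus strand, mm7) read -2.34 and -2.35 in WT on vehicle, -4.87 and -5.70 in WT after ENU, -3.55 and -3.20 in KO on vehicle, and -3.69 and -3.87 in KO after ENU. It was not well above background in WT after ENU. The WT vehicle sample was thus at least 5.34-fold higher than the ENU sample, and KO after ENU at least 1.98-fold higher than WT after ENU. KO on vehicle was 2.04-fold lower than WT on vehicle. With normexp background correction the WT ENU difference was -1.16, and KO and WT after ENU differed by 0.16.

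The cryptochromes, which with the PER proteins block the activator pair, split. Cry1, the stronger repressor of the pair, was the gene of the 10 that passed the genotype test. Its brighter probe (A_51_P302204, chr10:84685114-84685173, minus strand, mm7) read -2.34 and -2.28 in WT on vehicle, -3.89 and -3.62 in WT after ENU, -3.33 and -3.49 in KO on vehicle, and -4.50 and -4.49 in KO after ENU. KO lay below WT under each treatment and ENU below vehicle in each genotype, with no overlap. Cry1 fell in KO by 0.92 on the log2 scale (SE 0.201, limma adjusted p = 0.0395). Its second probe gave -0.99 (adjusted p = 0.0289 over all probes). The call was lost without the filter on dim probes (adjusted p = 0.0551) and without WT ENU replicate 2 (-0.85, adjusted p = 0.0626). The ENU sample was 2.72-fold lower in WT and 2.13-fold lower in KO, but with normexp these differences were -0.68 and -0.41.

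Cry2 (A_52_P248378, chr2:92254922-92254981, minus strand, mm7) read 0.81 and 0.88 in WT on vehicle, -0.26 and -0.21 in WT after ENU, 0.35 and 0.36 in KO on vehicle, and 0.19 and 0.22 in KO after ENU. It took the group order of the Per genes over a narrower range, 2.12-fold between the outer groups. Its averaged KO difference was -0.02 (limma adjusted p = 0.955), the mean of -0.49 on vehicle and 0.44 after ENU, and its sign turned under normexp (0.0074) and quantile normalisation (0.03). A dimmer probe 9720 bases away gave an ENU difference of -0.20 in WT and 0.42 in KO, and there KO was below WT after ENU as well, by -0.15.

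The REV-ERB genes differed from each other. Nr1d1 spanned 17.0-fold between its outer groups, more than the other 9, and was higher after ENU, as Arntl was. With normexp its span was 5.76-fold and with its 3 probes averaged 3.81-fold, below that of Per1 (8.98-fold and 12.8-fold). Its brightest probe (A_51_P223776, chr11:98878251-98878753, minus strand, mm7, spanning 503 bases of genome) read -2.22 and -2.09 in WT on vehicle and -0.34 and -0.42 after ENU. In KO it read -4.51 and -4.43 on vehicle and -1.16 and -1.13 after ENU. The ENU sample was 3.42-fold higher in WT and 10.01-fold higher in KO, averaging 2.55 (SE 0.431, limma adjusted p = 0.158). KO was 4.97-fold lower than WT on vehicle and 1.70-fold lower after ENU, averaging -1.54 (SE 0.431, limma adjusted p = 0.064). With normexp it passed (-0.98, adjusted p = 0.0255), while the difference on vehicle was -1.26 and the ENU difference in KO 1.83.

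The other Nr1d1 probes did not read the same. One lying 2806 bases toward the 5′ end gave ENU differences of 0.90 in WT and 0.52 in KO, and one 5909 bases away gave 0.08 and -0.22. On vehicle they put KO below WT by -0.49 and -0.23. With all 3 probes averaged, the ENU difference was 0.92 in WT and 1.21 in KO.

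Nr1d2 (A_52_P303891, chr14:16018965-16019024, minus strand, mm7) read 1.32 and 1.33 in WT on vehicle, 0.03 and 0.15 in WT after ENU, -0.52 and -0.48 in KO on vehicle, and 0.06 and 0.04 in KO after ENU. WT on vehicle was high, KO on vehicle low, and both ENU groups between them overlapped. ENU livers were 2.35-fold lower in WT and 1.46-fold higher in KO. KO was 3.54-fold lower than WT on vehicle, while after ENU the difference was -0.04. The averaged KO difference was -0.93 (SE 0.485, limma adjusted p = 0.206).

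The genotype comparison of these genes lay in a wider background, since many genes differed between KO and WT. In limma's test 1 of the 10 genes passed, Cry1, against 32.2% of all 18134 genes (16.9% higher and 15.3% lower). On vehicle 4 of the 10 were past 2-fold, all lower in KO (Per3, Cry1, Nr1d1 and Nr1d2), against 28.4% of all genes (17.3% higher and 11.1% lower). All 7 repressors lay below 0 on vehicle, with a median of -1.03, against -0.14 for all genes. The activators Arntl (-0.20) and Clock (-0.46) lay below 0 as well, and Npas2 was not well above background in either group. The share of all genes below 0 was not counted. After ENU 2 of the 10 were past 2-fold, both higher in KO (Per1 and Per2), and Per3 was at least 1.98-fold higher, against 30.5% of all genes past 2-fold (16.3% higher and 14.2% lower). The 5 Per and Cry genes then had a median of 0.98, with Per3 at its bound, and the activators of -0.37, against -0.10 for all genes. The median of 0.98 is the Per3 bound itself, and with normexp Per3 differed by 0.16. With normexp 2 of the 10 were past 2-fold on vehicle, against 14.8% of all genes, and 1 after ENU, against 18.2%.

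**Figure D3:**
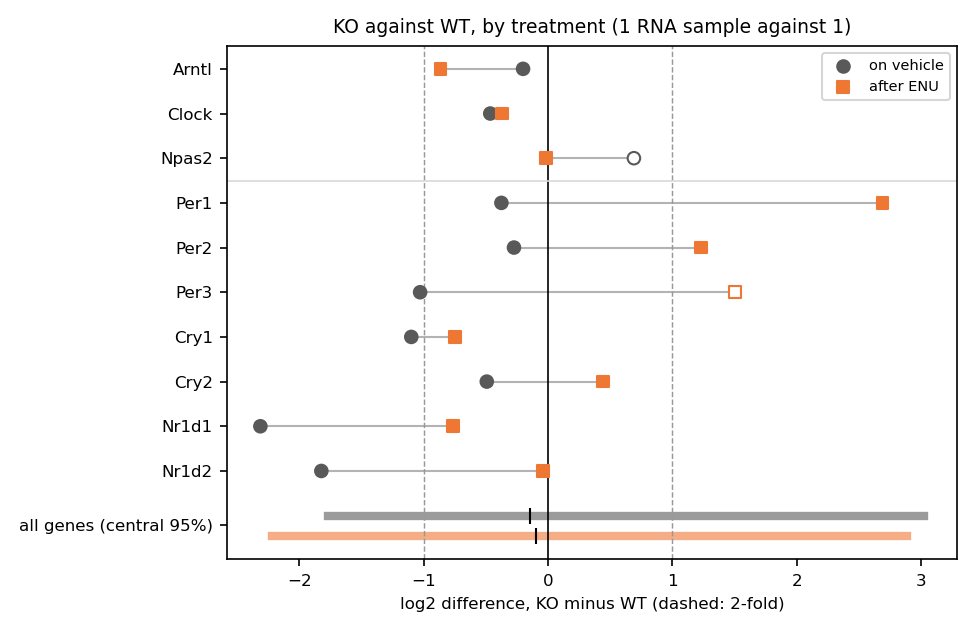
KO minus WT on vehicle (circles) and after ENU (squares) for each gene, in log2 on the x axis, with the central 95% of all genes as bars at the bottom and dashed lines at 2-fold. Per1, Per2, Per3 and Cry2 lie below 0 on vehicle and above 0 after ENU. Arntl, Clock, Cry1, Nr1d1 and Nr1d2 stay below 0, though Nr1d2 is at only -0.04 after ENU. Open symbols are differences involving a group not well above background.

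Probes along a gene gave different sizes of the ENU difference. For the 5 genes with several probes (13 probes in all), the probe nearest the 3′ end gave a larger absolute ENU difference than the one farthest from it in 5 of 5 genes in WT and 4 of 5 in KO. Cry2 was the exception in KO. Across all 6067 genes with several probes the shares were 48.6% and 43.9%. The 3′-most probe was also the brighter of those outer probes in 4 of the 5 genes, against 71.3% of all. The part of brightness in the difference between probes was not tested.

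**Figure D4:**
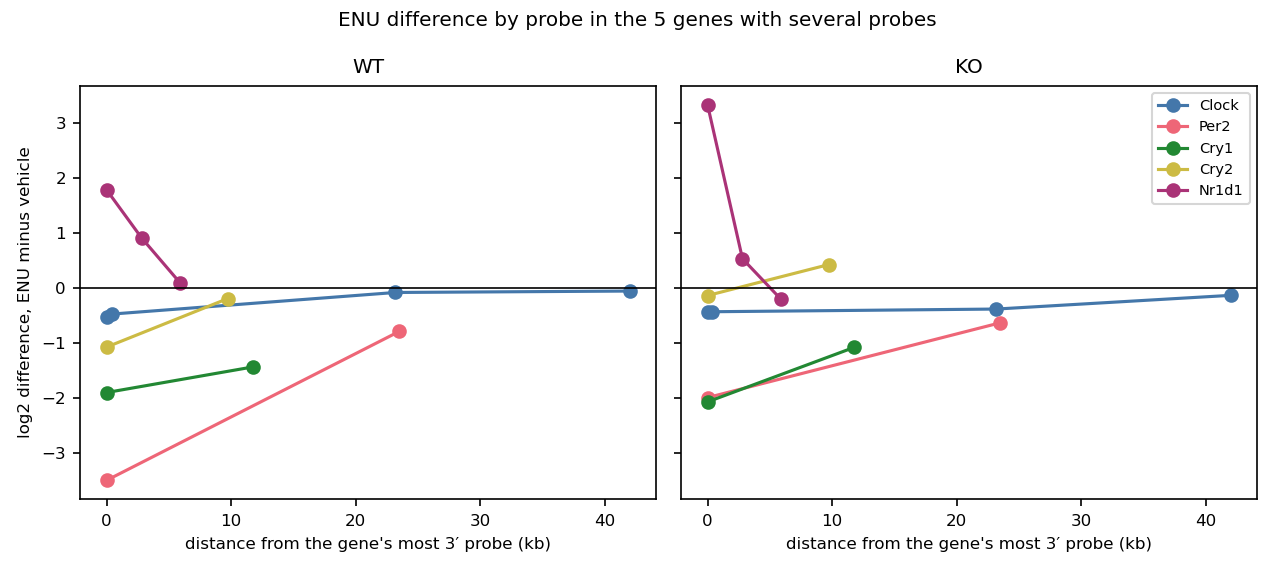
ENU minus vehicle at each probe of the 5 genes with several probes, in log2 on the y axis, against the distance in kilobases from the gene's most 3′ probe, in WT (left) and KO (right). Each line is 1 gene. In WT the difference shrinks with distance in all 5 genes, from 1.78 to 0.08 in Nr1d1 and from -3.51 to -0.80 in Per2.

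Genes around the core loop were read from 3 lists. Of 12 other loop genes, 9 were measured. In the genotype test 1 of the 9 rose and 2 fell, against 16.9% and 15.3% of all genes. Timeless, a replication and checkpoint protein related to the fly clock gene, rose (1.25, limma adjusted p = 0.0223). Nfil3, a D-box repressor, fell (-0.98, adjusted p = 0.0391). After ENU 6 of the 9 were more than 2-fold lower in WT and 3 in KO, and 0 were higher, against 5.58% and 5.48% of all genes lower. Their median log2 difference was -1.39 in WT and -0.47 in KO. Dbp, a D-box activator and E-box target, is named here after its values were seen: it differed by -3.65 in WT and 0.17 in KO. Ciart, a repressor of the activator pair, likewise chosen, was at least 14.0-fold lower after ENU in WT and at least 3.47-fold lower in KO, being not well above background after ENU.

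The 24 clock protein modifiers and cofactors, kinases, ubiquitin ligase parts and chromatin enzymes among them, were all measured and differed little. In the genotype test 1 of the 24 rose and 2 fell, against 16.9% and 15.3% of all genes. Csnk1e, a kinase of the PER proteins, rose in KO (1.99, limma adjusted p = 0.0114), and Prkaa2, a catalytic AMPK subunit, and Skp1, a ubiquitin ligase part, fell (-1.57, adjusted p = 0.0181, and -0.87, adjusted p = 0.0360). After ENU 0 of the 24 in WT and 1 in KO differed by a measured value or bound past 2-fold. The shares of all genes, at measured values, were 12.7% and 9.8%. The 1 in KO was Fbxl21, a ubiquitin ligase part that binds CRY proteins, named after its values were seen. Fbxl21 was not well above background on vehicle, and was at least 1.26-fold higher after ENU in WT and at least 2.11-fold in KO. The list's median ENU difference was -0.12 in WT and 0.04 in KO.

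The 16 rhythmic liver output genes were also all measured. In the genotype test 6 of them fell and 1 rose, against 15.3% and 16.9% of all genes. Among these was Elovl3, a fatty acid elongase (limma adjusted p = 0.0131, averaged over treatments). It was not well above background in KO after ENU, at least 1050-fold below WT in that comparison, which has no test. Lpin1, a phosphatidate phosphatase, Upp2, a uridine phosphorylase, Tsc22d3, a glucocorticoid-induced leucine zipper protein, and Gys2, the liver glycogen synthase, fell by 1.33 to 2.21 on the log2 scale (adjusted p 0.0164 to 0.0309). After ENU 11 of the 16 were more than 2-fold lower in WT and 8 in KO, and 1 was higher in each, with genes against a dim group counted at their bound. Of all genes at measured values, 5.58% in WT and 5.48% in KO were lower, and 7.14% and 4.32% higher. The list's median was -1.74 in WT and -0.995 in KO, against -0.05 and -0.06 for all genes. Named after their values were seen, Usp2, a deubiquitinase under clock control, differed by -5.35 and -2.82, and Cirbp, a cold-inducible RNA-binding protein, was the higher gene in both, by 2.04 and 2.38. Across the 3 lists 0 genes passed the ENU test in limma at an adjusted p of 0.05.

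**Figure D5:**
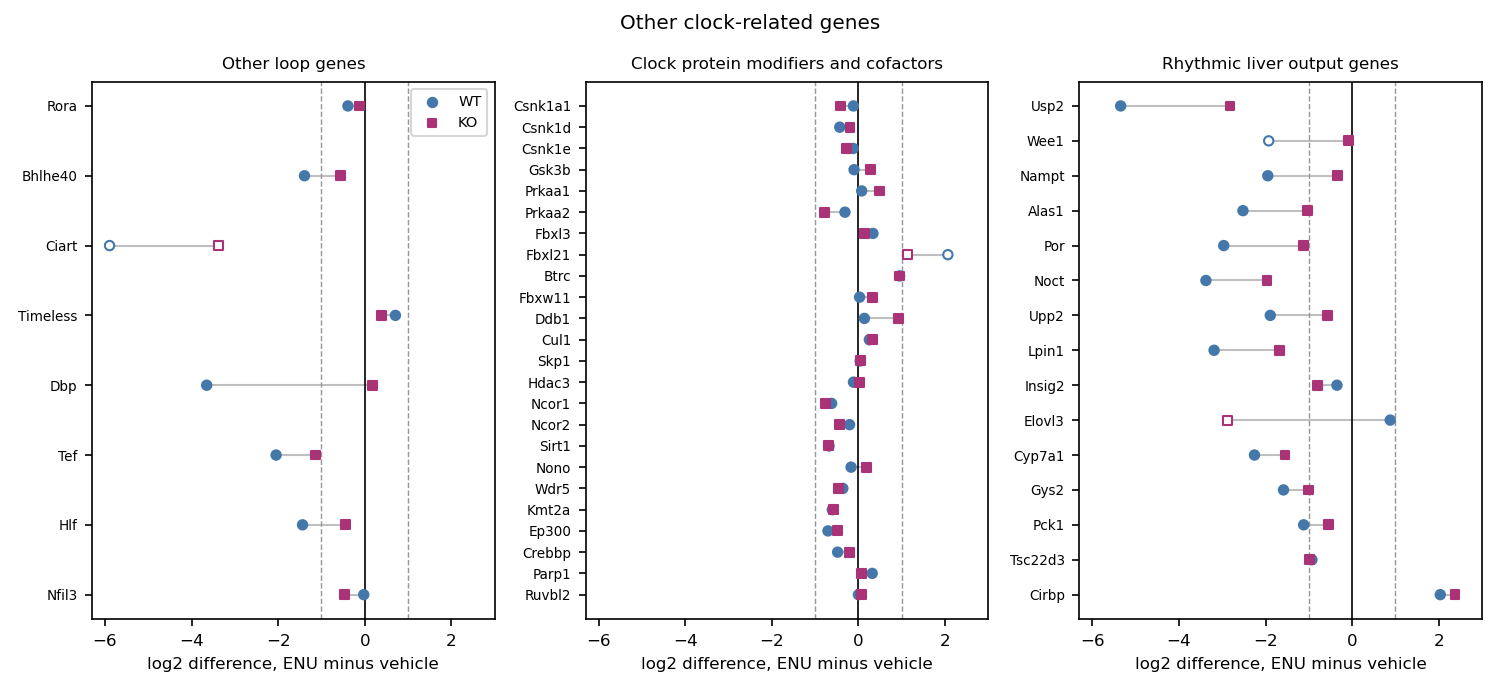
ENU minus vehicle for measured genes of the 3 lists, in log2 on the x axis, in WT (circles) and KO (squares), with dashed lines at 2-fold and open symbols where a group was not well above background. Most output genes and loop genes such as Dbp and Ciart lie to the left, and the modifiers cluster around 0.

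Genes with the most similar pattern were ranked by Euclidean distance over the 4 RNA samples, after centring each gene. Among the 5 genes nearest to Arntl of 18133 were Cbs (distance 0.0767, log2 units), BC012698 (0.113), Plet1os (0.137) and Fam149a (0.152). Cbs, which makes cystathionine, had means of -0.44 in WT on vehicle, 0.99 in WT after ENU, -0.70 in KO on vehicle and 0.15 in KO after ENU. Nearest to Nr1d1 was Upk3b (distance 0.555), and then ENSMUST00000078702, Muc16, Fn3krp and Clec2h (0.852 to 1.03). Arntl ranked 196 from Nr1d1, ahead of Nr1d2, which ranked 5442. Seen from Arntl the order differed: at the same distance (2.09) Nr1d1 ranked 14499, behind Nr1d2 at 13457. Both rankings use the brightest Nr1d1 probe, whose differences the other Nr1d1 probes did not share. With 4 points such ranks describe these samples only.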

How the data were processed

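The deposited files are Agilent scanner output, 1 array each, whose processed signal is an intensity already background-subtracted, per the file headers, which name Agilent Feature Extraction 10.7.1.1 (the submitters' processing notes give 10.5.1). Probe coordinates are those of the files (mm7), and exon positions were not analysed here. Spots of a probe were averaged, log2 was taken and each array's 75th percentile subtracted. A probe entered if well above background on both arrays of at least 1 group, and a gene's brightest probe stood for it. Names were updated through RefSeq (23082 probes by accession, 6582 by symbol, 3073 by synonym, 8437 kept the file's name). The arrays of each group were averaged. limma 3.58.1 (R 4.3.3) fitted genotype and treatment to the 4 RNA samples over 18134 genes, with Benjamini-Hochberg adjustment at 0.05, and comparisons of 1 sample with 1 used a 2-fold threshold. The fit was tested on simulated data. The letters a and b did not pair the samples.

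The members and gene lists were chosen with earlier results of these data known. Named were all 10 members with every probe, of each list up to 6 genes that passed a test, and the 5 genes nearest to Arntl and to Nr1d1. The alternatives were normexp background correction (offset 50), quantile and median scaling, other filters and probe rules, the 8 arrays fitted separately, fewer terms and each array left out. Some genes that these rules name are not reported here.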

Additional observations from a re-analysis of the deposited data

Results flagged for a closer look

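Per1, Per2, Per3 and Cry2 were lower in KO than in WT on vehicle and higher after ENU. The log2 differences, on vehicle and then after ENU, were -0.37 and 2.69 for Per1, -0.27 and 1.23 for Per2, -1.03 and 1.51 for Per3, and -0.49 and 0.44 for Cry2. Per3 was not well above background in WT after ENU, so its second value has only a bound, at least 1.98-fold, and was 0.16 with normexp. At the other probe of Cry2 the difference after ENU was -0.15, and at that of Per2 -0.84, so for these genes the change of sign holds at the brighter probe only. Every array of one group lay on one side of the other group, in opposite directions under the 2 treatments. Since the arrays of a group count as 1 RNA sample, this separation speaks to array noise only. The share of all genes with such a change of sign was not counted. Nr1d2 was lower after ENU in WT, by -1.23, and higher in KO, by 0.55. These differences between treatments or genotypes were not tested, since each group is 1 RNA sample.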

How the results depend on the processing

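With 1 RNA sample per group, 4 in all, the tests have little precision, and probes near background have little order. Fitting the 8 arrays as separate samples, with or without the letter a or b as a replicate block, takes the spread between arrays of 1 RNA as error. Genes called for genotype then went from 5845 to 15420 without the replicate block and 15313 with it, and for ENU from 0 to 13439 and 13208. Members called were 3 activators and 5 repressors for genotype (2 and 5 with the block) and 3 and 7 for ENU under both. With genotype as the only term 2101 genes and 0 repressors passed, and the adjusted p of Cry1 was 0.359. The repressors called for genotype, 1 in the reported fit, were 2 with normexp, with only probes well above background on all arrays, with probes averaged and with every probe tested, 0 without the filter on dim probes, and 0 to 1 when single arrays were left out.

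Under normexp and under the filter on all arrays respectively, genes called by ENU were 3 and 7, genes past 2-fold went from 5145 to 2683 and 3329 (KO on vehicle), from 5524 to 3292 and 3650 (KO after ENU), from 2306 to 907 and 1398 (ENU in WT) and from 1777 to 701 and 900 (ENU in KO, 3238 without a filter). Activators past 2-fold after ENU in WT went from 2 to 1 under both, and repressors under normexp from 4 to 2 for KO on vehicle and from 3 to 1 for KO after ENU. The averaged KO difference turned its sign for Npas2 (-0.23), Per3 (-0.29) and Cry2 (0.0074) under normexp, for Cry2 under quantile scaling (0.027), and for Per2 with probes averaged (-0.22) or its other probe (-0.92). Other probes also turned the ENU average of Cry2 (0.11) and Nr1d1 (-0.067), KO against WT after ENU for Per2 (-0.84) and Cry2 (-0.15) and ENU in KO for Nr1d1 (-0.22). Under quantile scaling and centring on the median the counts of members past 2-fold equalled those with the 75th percentile in all 4 single comparisons. Counts of members here take dim probes at their measured values. The causes were not tested.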
